A study of Mus musculus with 2 samples.

Results

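The genes described here encode the pericellular and basement membrane type matrix around chondrocytes. Their rows were found by gene symbol. The list holds 10 genes, namely the collagen VI chains *Col6a1*, *Col6a2* and *Col6a3*, the collagen IV chains *Col4a1* and *Col4a2*, perlecan (*Hspg2*), the nidogens *Nid1* and *Nid2*, the laminin chain *Lama4* and dystroglycan (*Dag1*). All 10 were found among the 23628 genes listed. RNA-sequencing was done on 2 libraries of 1 condition, named replicate 1 and replicate 2, of *Sox9*GFPHi chondrospheres. These are clonal colonies grown for weeks in methylcellulose with Maintenance Media, under low oxygen, from GFP-high cells that were sorted from femoral heads of homozygous *Sox9* IRES-EGFP pups at postnatal day 7. The sort left out cells with endothelial, erythrocyte or leukocyte surface markers, GFP reports *Sox9* transcription only, and no unsorted, fresh or untreated sample was analysed here. Each pup was a separate biological replicate in the culture work, whereas the labels of the libraries give only a number, so the spread below is that between these 2 libraries.

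Each chondrocyte in cartilage sits in a thin pericellular shell that differs from the bulk matrix of collagen II and aggrecan. Collagen VI forms beaded filaments from a trimer of different chains and marks this shell in articular cartilage. Perlecan, a large heparan sulfate proteoglycan, binds growth factors there. Collagen IV, laminins and nidogens are better known from basement membranes, where collagen IV and laminin each form a network and nidogens and perlecan tie the networks together. Dystroglycan is a cell surface receptor whose sugar chains bind laminin, perlecan and agrin.

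Levels are counts-per-million values (CPM), in which a gene's reads are divided by all reads on genes. Levels of different genes are compared only after division by length, as CPM per kilobase of all annotated exons of the gene. The commonest low value of each library, taken as that of 1 read, implies about 43300000 reads on genes for replicate 1 and 42200000 for replicate 2. The 10 highest genes took 43.4% and 34.7% of all CPM. Chondrocyte markers were present, as *Sox9* had 252 and 279 CPM and all 8 markers of the list passed 1 CPM in both libraries. Markers of cells that lay down vessel or epithelial basement membranes were near 0, where 3 reads are worth 0.0693 CPM (replicate 1) or 0.0712 CPM (replicate 2). Of 8 endothelial markers, 6 (*Cdh5*, *Kdr*, *Tek*, *Emcn*, *Cldn5* and *Tie1*) were listed at 0 in both libraries, and the 8 together reached 0.370 and 0.261 CPM. The 3 epithelial markers listed summed to 0.0462 CPM and 0. The 5 leukocyte markers summed to 3.26 and 3.50 CPM, the 5 skeletal muscle markers to 0.353 and 1.20 CPM, and the 4 adipocyte markers to 6.89 and 6.62 CPM, all of it *Fabp4*. The 5 fibroblast markers summed to 2.40 and 3.69 CPM. The 6 pericyte and smooth muscle markers listed summed to 57.4 and 96.9 CPM. Nearly all of that was *Acta2*, while *Rgs5* had 0.116 and 0.641 CPM. Of the 4 Schwann cell markers listed, *Cdh19* had 14.9 and 39.6 CPM and *Sox10* 0.0693 CPM and 0.

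By mean CPM per kilobase, perlecan and collagen VI were the highest of the 10 genes, and *Lama4* and the nidogens the lowest. In replicate 1 alone, *Col4a2* stood above *Col6a2* and *Nid2* above *Col4a1*. All 10 passed 1 CPM in both libraries, against 50.3% of all genes listed. The median of the 10 was 192 CPM, or 29.5 CPM per kilobase, while the 12631 genes whose mean reached 1 CPM had a median of 16.2 CPM, or 3.67 CPM per kilobase. Together the 10 genes summed to 3014 CPM in replicate 1 against 5711 CPM in replicate 2, or 0.301% and 0.571% of all CPM. Most genes of the cartilage matrix proper lay above them. A list of 10 genes that includes *Col2a1*, *Comp*, *Acan*, *Col11a2*, *Col9a2* and *Col9a3* had a median of 702 CPM per kilobase. The lowest of that list, *Hapln1* and *Matn3*, had means of 79.6 and 132 CPM per kilobase, within the range of the means of the 10 pericellular genes or just above it. The mean of *Matn3* joins unlike levels. It had 246 CPM per kilobase in replicate 1, above all 10 genes, and 17.6 in replicate 2, within their range. Within each library, *Hspg2* per kilobase stood below the proteoglycan gene *Acan* by log2 ratios of -4.32 and -3.94.

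Per kilobase, the order by mean was *Col6a3*, *Col6a1*, *Hspg2*, *Col6a2*, *Col4a2*, *Dag1*, *Col4a1*, *Nid2*, *Nid1* and *Lama4*. Of the 45 possible pairs, 38 were ordered alike in replicates 1 and 2. Neighbours in the order were mostly not apart, as only 3 of 9 gaps had the same sign in both libraries and exceeded their own SD. These were *Hspg2* above *Col6a2*, *Col4a2* above *Dag1* and *Dag1* above *Col4a1*. The first place differed, since *Hspg2* led in replicate 1 with 95.1 CPM per kilobase and *Col6a3* in replicate 2 with 192. The length used matters for *Col6a2*. Its annotated exons cover 8326 bases but its longest coding transcript only 3949, and per kilobase of that transcript its mean was 97.3 CPM against 101 for *Hspg2*, with *Col6a2* above *Hspg2* in replicate 2.

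**Figure D1:**
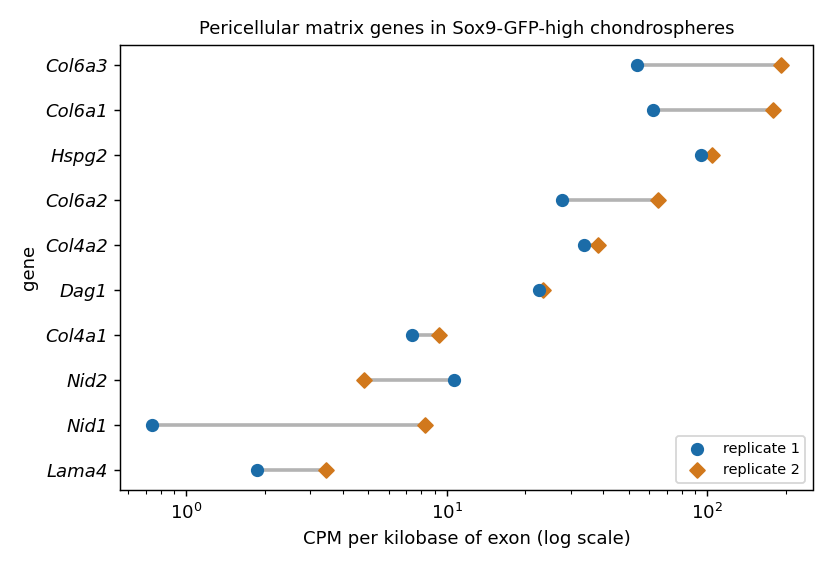
Levels of the 10 pericellular matrix genes in CPM per kilobase of exon on a log axis, with a blue circle for replicate 1 and an orange diamond for replicate 2 joined by a grey line. The collagen VI genes and *Nid1* lie to the right in replicate 2, *Nid2* lies to the left, and *Hspg2*, *Col4a2* and *Dag1* have nearly overlapping points.

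The 3 collagen VI chains were all higher in replicate 2. *Col6a1*, on chromosome 10 of GRCm38 from 76708792 to 76726168 with 35 exons in its longest coding transcript, had 271 CPM in replicate 1 against 787 CPM in replicate 2, a 2.90-fold difference. *Col6a2*, on the same chromosome and strand from 76595762 to 76623630 with 28 exons, had 231 and 537 CPM, or 2.32-fold. *Col6a3*, whose product carries a much longer run of von Willebrand factor A domains than the other chains, lies on chromosome 1 from 90765923 to 90843971 with 44 exons and had 646 and 2299 CPM, or 3.56-fold. No protein-coding gene is annotated in the 85161 bases between *Col6a2* and *Col6a1*. The summed CPM of the 3 chains was 1148 in replicate 1 and 3622 in replicate 2, a 3.16-fold difference. In bulk RNA, a larger number of cells of a type and more RNA per cell cannot be told apart. *Acta2* and *Cdh19*, a smooth muscle and a Schwann cell marker of the lists above, were also higher in replicate 2, and their part in this difference was not tested.

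Differences between the libraries were set against those of all genes. Log2 ratios of replicate 2 to replicate 1 were taken with a pseudocount of 0.1 CPM and centred on their median over the 12631 genes, which was 0.30. After centring, 7.43% of all genes were more than 2-fold higher in replicate 2 and 6.06% more than 2-fold lower. Of the 10 genes, 3 were more than 2-fold higher (*Col6a1*, *Col6a3* and *Nid1*) and 1 more than 2-fold lower (*Nid2*). Without centring, on the per-million scale, *Col6a2* also passed 2-fold, and 4 of the 10 genes were higher against 11.4% of all genes and 1 lower against 3.71%. The centred log2 ratios were 1.23 for *Col6a1*, 0.91 for *Col6a2* and 1.53 for *Col6a3*. Only 510 of the 12631 genes, or 4.04%, had a larger positive ratio than *Col6a3*. The median centred ratio of the 10 genes was 0.31, and that of the cartilage matrix list was -0.76. No test was made on 2 libraries of 1 condition. Counting error alone gave a log2 SE of at most 0.10 for any of the 10 genes.

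**Figure D2:**
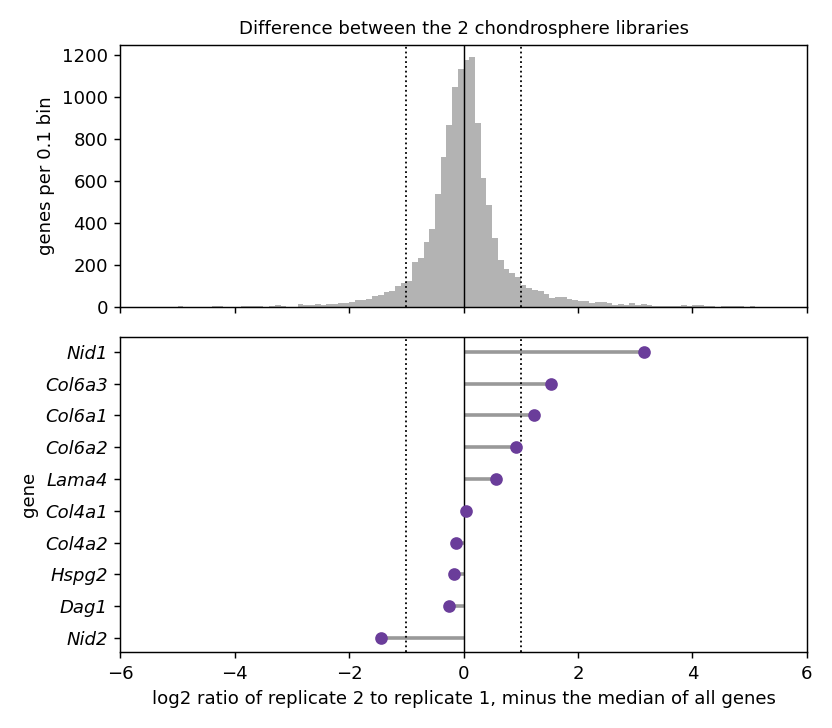
The upper panel is a histogram of the log2 ratio of replicate 2 to replicate 1 over 12631 genes, centred on their median, and the lower panel gives the same quantity for each of the 10 pericellular matrix genes. Dotted lines mark 2-fold, which *Nid1*, *Col6a3* and *Col6a1* pass on the higher side and *Nid2* on the lower side.

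Within each library, *Col6a3* and *Col6a1* were near to each other in level, while *Col6a2* was lower per kilobase of exon. *Col6a3* to *Col6a1* per kilobase gave a log2 ratio of -0.20 in replicate 1 and 0.10 in replicate 2, a mean of -0.05 ± 0.21 (SD, n = 2), so these chains were not apart. *Col6a2* stood below *Col6a1* by -1.15 and -1.48, with a mean of -1.32 ± 0.23 (SD, n = 2). Per kilobase of longest coding transcript, that mean was -0.34 ± 0.23 (SD, n = 2), so the size of this gap depended on the length given to *Col6a2*. The share of *Col6a3* in the summed CPM per kilobase of the 3 chains was 37.6% and 44.0%. The alternative chains that can replace *Col6a3* were nearly absent, as *Col6a4* and *Col6a5* were listed at 0 in both libraries and *Col6a6* at 0 in replicate 1 and at 0.0237 CPM in replicate 2, which is below the level of 3 reads.

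The stretches of 250 bases before the annotated starts of the collagen VI genes are shown because these genes differed together between the libraries, and that of *Nid1* because it differed most. They are RefSeq sequences on GRCm38.p6, read 5′ to 3′ along the gene. Capitals mark matches, on either strand, to the GC box GGGCGG, the CCAAT box CCAAT, the TATA box TATAAA, the AP-1 motif TGANTCA or the SOX core AACAAT.
*Col6a1*, chr10:76726045-76726294, minus strand: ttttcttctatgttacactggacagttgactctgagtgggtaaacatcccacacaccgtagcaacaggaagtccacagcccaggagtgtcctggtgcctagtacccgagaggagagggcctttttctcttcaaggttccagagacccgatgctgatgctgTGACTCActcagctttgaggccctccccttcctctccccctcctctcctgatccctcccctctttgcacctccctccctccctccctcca
*Col6a2*, chr10:76623631-76623880, minus strand: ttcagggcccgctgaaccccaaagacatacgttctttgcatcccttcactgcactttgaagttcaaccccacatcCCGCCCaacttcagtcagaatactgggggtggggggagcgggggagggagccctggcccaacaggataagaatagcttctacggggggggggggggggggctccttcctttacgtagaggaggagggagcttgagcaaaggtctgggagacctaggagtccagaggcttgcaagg
*Col6a3*, chr1:90843972-90844221, minus strand: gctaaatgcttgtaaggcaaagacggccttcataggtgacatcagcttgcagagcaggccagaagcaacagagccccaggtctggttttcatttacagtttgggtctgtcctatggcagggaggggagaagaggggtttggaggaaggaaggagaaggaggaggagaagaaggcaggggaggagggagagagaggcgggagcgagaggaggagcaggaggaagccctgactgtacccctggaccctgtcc
*Nid1*, chr13:13437352-13437601, plus strand: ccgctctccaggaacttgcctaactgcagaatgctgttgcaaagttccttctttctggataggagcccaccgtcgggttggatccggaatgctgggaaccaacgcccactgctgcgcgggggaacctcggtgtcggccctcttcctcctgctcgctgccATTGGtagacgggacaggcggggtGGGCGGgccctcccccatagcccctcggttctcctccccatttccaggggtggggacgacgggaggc
The matches in these stretches do not overlap each other. *Col6a1* held 1 AP-1 match, a motif found in 6.73% of all 32536 such stretches, *Col6a2* held 1 GC box and *Col6a3* held no match. *Nid1* held 1 GC box and 1 CCAAT box. The GC box occurs in 33.0% of all stretches and the CCAAT box in 33.8%. The 3 collagen VI stretches thus had no match in common. RefSeq gives *Col6a2* a second start 226 bases downstream, whose stretch held 3 GC boxes, of which 2 overlap. The RefSeq starts of *Col6a1* and *Nid1* lie 124 and 51 bases from the start of the GENCODE gene. Of the 10 genes, 8 were matched to a RefSeq start, and of these 5 had a GC box, 4 a CCAAT box, 1 an AP-1 match and none a TATA box or SOX core. The TATA box occurs in 12.3% and the SOX core in 9.35% of all stretches.

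The collagen IV genes differed little between the libraries. *Col4a1*, on chromosome 8 from 11198423 to 11312826 with 52 exons, had 54.9 CPM in replicate 1 against 69.9 CPM in replicate 2. *Col4a2*, from 11312805 to 11449287 with 48 exons, had 224 and 252 CPM. The centred log2 ratios were 0.04 for *Col4a1* and -0.13 for *Col4a2*, and the latter was 0.17 without centring, so its sign depends on the scaling. Both genes therefore lay within 2-fold, unlike *Col6a1* and *Col6a3*.

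The collagen IV genes are transcribed away from each other from a shared start region. In the annotation their first exons overlap by 22 bases on opposite strands, which are shown because they belong to both genes. Capitals mark the 1 GC box in it.
*Col4a1* and *Col4a2*, chr8:11312805-11312826, plus strand of *Col4a2*: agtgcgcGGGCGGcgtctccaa
Although the starts are shared, the levels were not equal. Per kilobase, *Col4a2* had 33.8 and 38.1 CPM and *Col4a1* 7.36 and 9.36 CPM. *Col4a2* exceeded *Col4a1* by 4.59-fold and 4.07-fold, a log2 ratio of 2.11 ± 0.12 (SD, n = 2), and by 1.97 ± 0.12 (SD, n = 2) per kilobase of longest coding transcript. This ratio is far larger than its spread between the libraries. The collagen IV network is usually built from trimers with more *Col4a1* than *Col4a2* chains, and the RNA levels had the opposite order. The libraries were stranded, but whether the counting used strand is not given in the sources used here. The shared 22 bases are 0.295% of the exon length of *Col4a1*. Of the 4 other collagen IV chains, *Col4a5* had 20.5 and 17.7 CPM, or 6.89% and 5.25% of the summed CPM per kilobase of all 6 chains. *Col4a3*, *Col4a4* and *Col4a6*, known from kidney and other specialised basement membranes, did not pass 1.09 CPM in either library.

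*Hspg2*, on chromosome 4 from 137468769 to 137570630 with 97 exons, encodes the perlecan core protein and was the most even of the high genes. It had 1360 CPM in replicate 1 against 1495 CPM in replicate 2, with 58869 and 63009 reads implied, and ranked 54 and 44 among all genes. Its centred log2 ratio was -0.17 and its ratio without centring 0.14. Since collagen VI was higher in replicate 2 and perlecan nearly even, their order per kilobase differed. *Hspg2* stood above *Col6a3* by a log2 ratio of 0.82 in replicate 1 and below it by -0.88 in replicate 2.

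Agrin (*Agrn*), another heparan sulfate proteoglycan of basement membranes, had 192 and 141 CPM. Per kilobase *Hspg2* exceeded *Agrn* by a log2 ratio of 2.49 ± 0.41 (SD, n = 2), which was larger than the spread between the libraries.

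The nidogens had opposite orders in the libraries. *Nid1*, on chromosome 13 from 13437551 to 13512269 with 20 exons, had 5.13 CPM in replicate 1 against 57.5 CPM in replicate 2, an 11.2-fold difference. *Nid2*, on chromosome 14 from 19751265 to 19811787 with 21 exons, had 55.3 CPM in replicate 1 against 24.998 CPM in replicate 2, and was thus 2.21-fold higher in replicate 1. The centred log2 ratios were 3.16 for *Nid1* and -1.45 for *Nid2*. Only 104 of 12631 genes (0.823%) had a larger positive ratio than *Nid1*, and 378 (2.99%) a lower one than *Nid2*. The values of *Nid1* rest on about 222 and 2423 reads. *Nid2* made up 93.5% of the summed nidogen CPM per kilobase in replicate 1 and 36.9% in replicate 2. The sum itself was 11.4 and 13.1 CPM per kilobase, so it differed far less than either gene. Exons of *Nid2* overlap those of *Rtraf* on the opposite strand over 437 bases, or 8.45% of its exon length. *Rtraf* had 67.6 and 90.0 CPM. Whether reads from the shared bases affect the values of *Nid2* was not tested. *Nid1* shares 143 exon bases, or 2.06% of its exon length, with the antisense gene *Gm48682*.

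**Figure D3:**
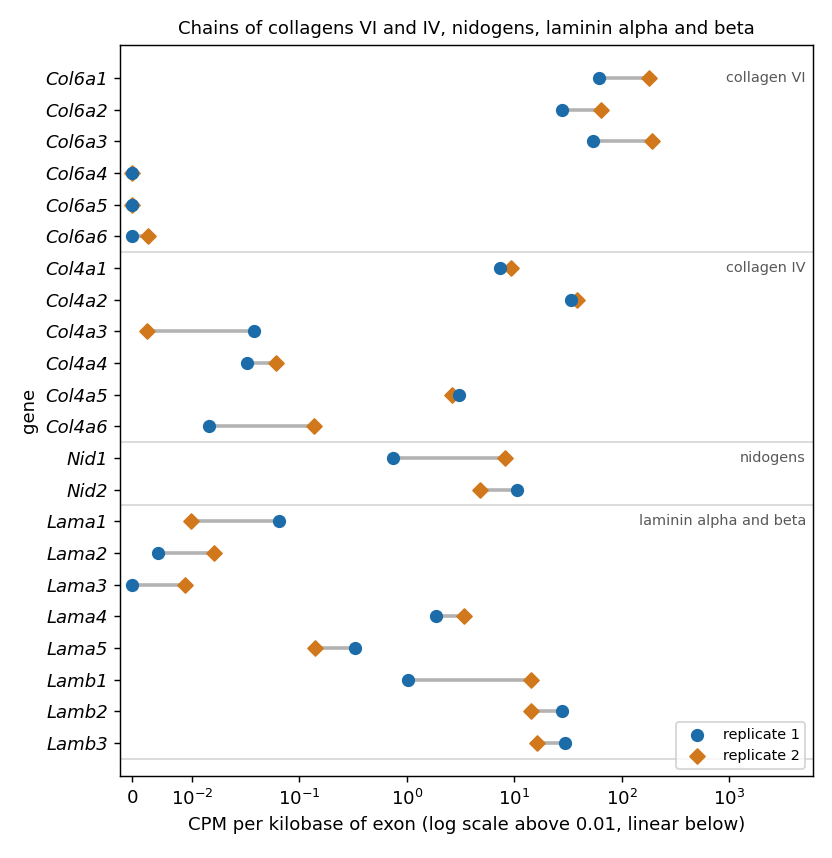
Levels of the chains of collagens VI and IV, the nidogens and the laminin alpha and beta chains in CPM per kilobase of exon, on an axis that is logarithmic above 0.01 and linear below, with a blue circle for replicate 1 and an orange diamond for replicate 2. *Nid1* and *Lamb1* lie well to the right in replicate 2 while *Nid2*, *Lamb2* and *Lamb3* lie to the left, and *Col6a4* and *Col6a5* sit at 0 in both.

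*Lama4* was the main laminin alpha chain. Laminins are trimers of an alpha, a beta and a gamma chain, and alpha 4 is typical of vessels, muscle and fat. *Lama4*, on chromosome 10 from 38965515 to 39110188 with 38 exons, had 22.6 CPM in replicate 1 against 41.5 CPM in replicate 2, with a centred log2 ratio of 0.57. It made up 82.6% and 95.2% of the summed CPM per kilobase of the 5 alpha chains. *Lama5*, the next, had 3.72 and 1.59 CPM, and *Lama1*, *Lama2* and *Lama3* stayed between 0 and 0.624 CPM. *Lamc1*, the common gamma chain, had 24.1 and 31.4 CPM. *Lama4* to *Lamc1* per kilobase was a log2 ratio of -0.39 ± 0.35 (SD, n = 2), but 0.49 ± 0.35 (SD, n = 2) per kilobase of longest coding transcript, so their order depended on the length used. *Lamc3* was listed at 0 in both libraries.

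The laminin beta chains differed in balance between the libraries. Per kilobase of exon, *Lamb1* stood far below *Lamb2* in replicate 1 with a log2 ratio of *Lamb2* to *Lamb1* of 4.78, and was nearly level with it in replicate 2 with 0.02. Per kilobase of longest coding transcript, the log2 ratios were 4.11 and -0.65, so *Lamb1* then stood above *Lamb2* in replicate 2. *Lamb1* had 10.2 CPM in replicate 1 against 141 CPM in replicate 2, the largest difference among the other 10 laminin genes, with a centred log2 ratio of 3.48. *Lamb2* had 171 and 87.6 CPM, with a centred log2 ratio of -1.27. *Lamb3*, a chain known from epithelial laminin, had 198 and 108 CPM, with -1.18. *Lamb2* and *Lamb3* were more than 2-fold lower in replicate 2 only after centring, and without it their log2 ratios were -0.96 and -0.87. Of the 6 other laminin genes whose mean reached 1 CPM, 1 was more than 2-fold higher and 3 more than 2-fold lower after centring. *Lama5* was the third of the latter. Over all genes the shares were 7.43% higher and 6.06% lower. Per kilobase of exon, *Lamb1* made up 1.74% of the beta chains in replicate 1 and 31.7% in replicate 2. Per kilobase of longest coding transcript, these shares were 2.42% and 39.3%, the latter above those of *Lamb2* and *Lamb3*. The epithelial markers *Cdh1* and *Krt14* were listed at 0 in both libraries.

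*Dag1* had the most nearly equal CPM of the 10 genes in the 2 libraries. It lies on chromosome 9 from 108204634 to 108263958, with 4 exons in its longest coding transcript, and had 144 CPM in replicate 1 against 149 CPM in replicate 2. Its log2 ratio was 0.04 without centring and -0.26 after it. The enzymes listed for the glycosylation of dystroglycan were all present. All 12 of that list passed 1 CPM in both libraries, against 50.3% of all genes listed. After centring, 0 of 12 differed more than 2-fold, where 7.43% of all genes were higher and 6.06% lower. For 12 genes, a count of 0 is near these shares. The highest per kilobase, among 11 with a length, was *Pomgnt1*, which extends the O-mannose, with 38.6 and 56.5 CPM. *B4gat1*, *Rxylt1*, *B3galnt2* and *Pomk* had means between 4.83 and 6.46 CPM per kilobase.

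On the inner side of the membrane, dystroglycan is held by dystrophin or its relative utrophin. Of the 13 genes of that complex, 9 passed 1 CPM in both libraries, against 50.3% of all genes listed. After centring, 0 of 9 differed more than 2-fold, which is near the shares of all genes, 7.43% higher and 6.06% lower. Without centring, *Utrn* and *Sgcd* passed 2-fold with log2 ratios of 1.04 and 1.07, where 11.4% of all genes were higher. *Utrn* had 51.2 and 105 CPM and *Dmd* 13.1 and 9.47 CPM, so utrophin was the higher of these in both, also per kilobase of exon, with means of 4.57 and 0.475 CPM. *Dmd* had the largest centred difference of the 9, with -0.77. *Sspn*, *Sgcb*, *Sntb2* and *Dtnb* were between 11.2 and 49.4 CPM. The muscle sarcoglycan *Sgca* had 0.0924 and 0.214 CPM.

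Other receptors for these matrix proteins were present. Of 12 in the list, 11 passed 1 CPM in both libraries, against 50.3% of all genes listed. *Cspg4*, which encodes the collagen VI binding proteoglycan NG2, had 538 and 619 CPM, and *Itgb1*, the shared beta chain of the collagen and laminin integrins, 408 and 760 CPM. Per kilobase, *Dag1* stood below *Itgb1* by a log2 ratio of -2.57 ± 0.60 (SD, n = 2). *Itga10*, the alpha chain typical of chondrocytes, had 89.4 and 64.1 CPM, and *Itga6*, a laminin receptor chain, 49.8 and 73.8 CPM. *Antxr1* had 41.3 and 49.0 CPM, and *Antxr2*, which binds and clears collagen VI, 16.7 and 38.0 CPM. *Itga2* had 1.99 CPM in replicate 1 against 21.8 CPM in replicate 2, the largest difference of this list, with a centred log2 ratio of 3.08. After centring, 2 of 11 receptor genes were more than 2-fold higher in replicate 2 and 1 more than 2-fold lower. The shares of all genes were 7.43% and 6.06%. Without centring, *Antxr2* and *Itga1* also passed 2-fold with log2 ratios of 1.18 and 1.05, where 11.4% of all genes were higher.

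Among 14 further components, 7 passed 1 CPM in both libraries, near the 50.3% of all genes listed. *Pxdn*, the peroxidase that crosslinks collagen IV, had 194 and 304 CPM and was the highest by mean CPM per kilobase, followed by *Agrn*, which was slightly above it in replicate 1. *Tinagl1*, a laminin-binding matrix protein, had 1.52 CPM in replicate 1 against 67.1 CPM in replicate 2, the largest difference of the list, with a centred log2 ratio of 5.07. *Vwa1*, a cartilage pericellular protein that binds perlecan and collagen VI, had 5.29 and 15.4 CPM, and was thus higher in replicate 2 along with the collagen VI chains. *Ntn4*, a netrin that disrupts laminin networks, had 5.96 and 1.35 CPM, and *Col7a1* 2.29 and 3.37 CPM. *Col18a1*, the basement membrane collagen that yields endostatin, had 0.693 and 29.9 CPM, and was singled out after its values were seen. *Frem1* and *Frem2* were listed at 0 in both libraries. Of the 8 genes of this list whose mean reached 1 CPM, 3 were more than 2-fold higher after centring and 1 more than 2-fold lower. The shares of all genes were 7.43% and 6.06%.

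Proteins that tie collagen VI to the surrounding matrix did not follow its difference between the libraries. *Bgn*, biglycan, was even at 9750 and 9739 CPM. *Dcn*, decorin, had 879 and 267 CPM, *Matn3* 741 and 53.1 CPM, and *Matn1* 902 and 29.2 CPM. After centring, 3 of these 4 genes were more than 2-fold lower in replicate 2, against 6.06% of all genes. *Matn1* differed most, with a centred log2 ratio of -5.25.

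**Figure D4:**
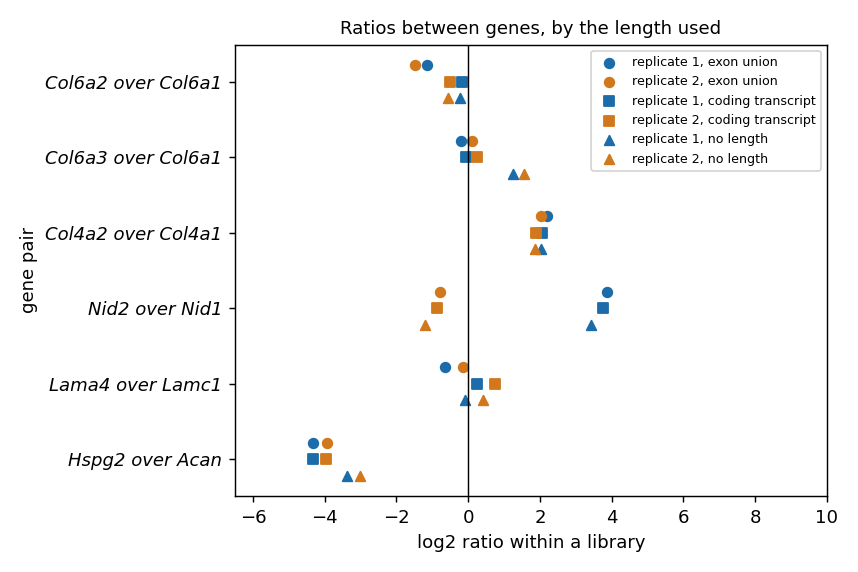
Log2 ratios between genes within each library for 6 gene pairs, with replicate 1 in blue and replicate 2 in orange, each computed per kilobase of exon (circles), per kilobase of the longest coding transcript (squares) and without length (triangles). *Col4a2* exceeds *Col4a1* in all 6 values, *Nid2* to *Nid1* differs in sign between the libraries, and the mean of *Lama4* to *Lamc1* differs in sign with the length used.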

How the data were processed

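The deposited values are CPM. The authors used, by their methods and processing notes, Partek Flow 10.0.21.0801, aligning single-end reads of 50 bases to GRCm38 with STAR 2.7.3a and GENCODE M25, assigning them to genes with Partek E/M and dividing by the total. E/M can split reads between similar genes. An offset of 0.0001 was subtracted. With a tolerance of 0.05, only 66.0% and 64.7% of low values were whole multiples of the value taken as 1 read, so no count model was fitted. Lengths and coordinates come from GENCODE M21 on GRCm38, in which 22967 of 23628 symbols (97.2%) matched 1 gene. Promoter stretches come from RefSeq.

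Mean and SD of the 2 libraries, log2 ratios and 2-fold calls among genes whose mean reached 1 CPM were computed with Python 3.11.15, numpy 2.4.6 and pandas 2.3.3, and plotted with matplotlib 3.10.9. The members, 8 further lists and 9 marker lists were chosen with earlier results of these data known. From each list the text names up to the 6 highest genes per kilobase that pass 1 CPM in both libraries, genes at 0 in both and the gene that differs most. Single further genes were named after their values were seen. Markers *Kcnj8*, *Krt5* and *Krt8* were not analysed here, and some other genes of the lists enter the counts but are not reported here. Alternatives covered scaling, pseudocount, filter, length and each library left out.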

Additional observations from a re-analysis of the deposited data

How the results depend on the processing

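With 2 libraries, leaving out either one gives the value of the other, which lies within 1 SD of the mean by arithmetic and shows no stability. No paired analysis was possible because both libraries belong to 1 group.

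For 41 results, 168 values were recomputed, of which 146 stayed within a set limit, 20 lay further off and 2 reversed a ratio that exceeded its SD. The limit was the SD of the 2 libraries, or 1.5 times where the value is a count. For the log2 ratio of a single gene between libraries it was wider. There it was the SD of that ratio over all genes, 0.83, divided by the square root of 2. The 146 include the values with either library left out, which had to stay within the limit and so show no stability. Signs also differed for values within their SD or within 2-fold. *Nid2* to *Nid1* was -0.78 without replicate 1, *Col6a3* to *Col6a1* was 0.10 without replicate 1 or per kilobase of longest coding transcript, and without centring the log2 ratios between libraries were 0.17 for *Col4a2*, 0.14 for *Hspg2* and 0.04 for *Dag1*. When the total excluded the 10 highest genes, the median of the 10 members was 315 CPM and their share 0.701%, as a smaller total requires. Per kilobase of longest coding transcript, the log2 ratio was -0.34 for *Col6a2* to *Col6a1*, 1.97 for *Col4a2* to *Col4a1* and 0.49 for *Lama4* to *Lamc1*, the last of these reversed. Without length the log2 ratios were -0.39, 1.94 and 0.15, again with *Lama4* to *Lamc1* reversed, and 1.40 for *Col6a3* to *Col6a1* and -3.19 for *Hspg2* to *Acan*. The counts of members past 2-fold were 3 higher and 1 lower under every pseudocount, filter and scaling tried, apart from 4 higher without centring. The share of all genes past 2-fold was 3.75% higher and 3.35% lower among genes whose mean reached 10 CPM, and was 9.95% and 11.7% among all genes above 0. The depth limits statements on genes near 3 reads, and all floors cover counting error only.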
